A study of Mus musculus with 39 samples.

Results

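The BCL2 family was followed through 10 genes whose products decide, at the outer mitochondrial membrane, whether a cell lives or dies. They were the pro-survival genes Bcl2, Bcl2l1 (which encodes Bcl-xL), Mcl1 and Bcl2l2 (Bcl-w), the effectors Bax and Bak1, and the BH3-only genes Bcl2l11 (Bim), Bid, Bad and Bmf. A probe set was taken as a member's when the array annotation gave it that gene symbol and no other. By this rule 9 of the 10 genes were measured, on 27 of the 20380 probe sets with a single symbol, among 12393 genes in all. Bax had no such probe set and was not analysed here. Each gene is represented by the brightest of its probe sets, judged on the mean of the 39 arrays, and the others are described separately.

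RNA came from B-lineage cells sorted out of mouse bone marrow and was hybridised to 39 Affymetrix arrays. Normal cells of adult mice were sorted at 4 stages. Pro-B cells, which were B220+ CD43+ and carried neither IgM nor IgD, had 6 arrays, and pre-B cells, which had lost CD43, had 8. Immature B cells (IgM+ without IgD) had 6 arrays and mature B cells (IgM+ and IgD+) had 3. The remaining 16 arrays, labelled as leukemic, held cells in the pre-B gate, and the series title names them as MLL-AF4 lymphoblasts. MLL-AF4 is the fusion of a histone methyltransferase gene with a transcription elongation gene that is found in acute lymphoblastic leukemia of infants. The sample labels give no genotype for 15 of these 16 arrays. The description of array 116 names an Mll-AF4stop knock-in mouse and does not call the animal leukemic. On 5 leukemic arrays the description names pIpC, a synthetic double-stranded RNA used as an interferon inducer, and on 11 it does not. Strain was not given, and the labels do not say which normal arrays came from separate animals, so each p-value reflects array-to-array spread, which may be technical.

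Pro-survival proteins of this family bind and restrain the effectors Bax and Bak. BH3-only proteins respond to stress or loss of growth signals, and either occupy the pro-survival proteins or engage the effectors directly, after which cytochrome c leaves the mitochondria, binds Apaf1 and activates caspase-9. In B-cell development Bcl-xL is known for keeping pre-B cells alive, Bcl2 for the survival of mature lymphocytes, Mcl1 for a need at many stages, and Bim for the removal of self-reactive immature cells.

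Values are log2 of the deposited linear intensities, and array medians lay between 6.36 and 6.76. Levels of different genes are not compared, because probe sets differ in brightness. A background limit was set at the 95th percentile of 27 probe sets for bacterial control RNA, a log2 intensity of 3.79. Array 122 went against its label: 7 of 8 B-lineage markers lay below all 15 other leukemic arrays, among them Cd79a, a part of the B-cell receptor, at 7.0 against 10.66 to 12.04. The mean of its myeloid markers was 9.72, above the 4.95 to 8.58 of the other leukemic arrays. In normal cells that mean was 7.22 to 9.33 on pre-B and 9.38 to 10.17 on pro-B arrays. On immature B and mature B arrays it was 8.31 to 10.27 and 8.56 to 10.86. Member differences from normal pre-B cells that passed, and that of Bcl2l1, are therefore also given without array 122 and without array 116. So is the count of members against pro-B cells. Other leukemic results, those of genes other than the members among them, are on all 16 leukemic arrays unless stated. Pro-B arrays differed from pre-B arrays in markers of other cells. The mean of 13 T and NK cell markers was 7.61 to 9.39 in pro-B and 5.82 to 6.38 in pre-B, and that of 9 plasmacytoid dendritic cell markers was 9.97 to 11.40 and 6.65 to 8.87. The mean of the 15 myeloid markers was also higher on every pro-B than on every pre-B array. The part of these cells in the pro-B values was not tested. In accession order the arrays were split into 2 successive runs of 22 and 17, where the order of the groups starts again with pro-B cells. The numbers themselves continue without a gap, and the labels do not name the runs as batches. The beta-actin 3'/5' log2 difference, a sign of how evenly the RNA was copied, was 1.29 ± 0.08 (SD) in the first run and 0.80 ± 0.14 in the second. That of Gapdh went the other way, at 0.97 ± 0.11 and 1.29 ± 0.20, and within the second run it averaged 1.09 on leukemic, 1.59 on mature B, 1.41 on immature B, 1.26 on pre-B and 1.15 on pro-B arrays. The part of these signs in the members' values was not tested. All 3 mature B arrays were in the second run, and the other groups were in both.

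Across the normal path 7 of the 9 measured members differed between stages by limma's F test with Benjamini-Hochberg adjustment over all genes at 0.05, where 43.9% of all genes did. The 2 that did not pass were Bak1 (adjusted p = 0.883) and Bad (adjusted p = 0.384). The main pattern was an exchange of the pro-survival genes: Bcl2 was lowest and Bcl2l1 highest in pre-B cells, and mature B cells stood at the other end for both. In these sorted populations, fewer cells that express a gene and less RNA per cell cannot be told apart.

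**Figure D1:**
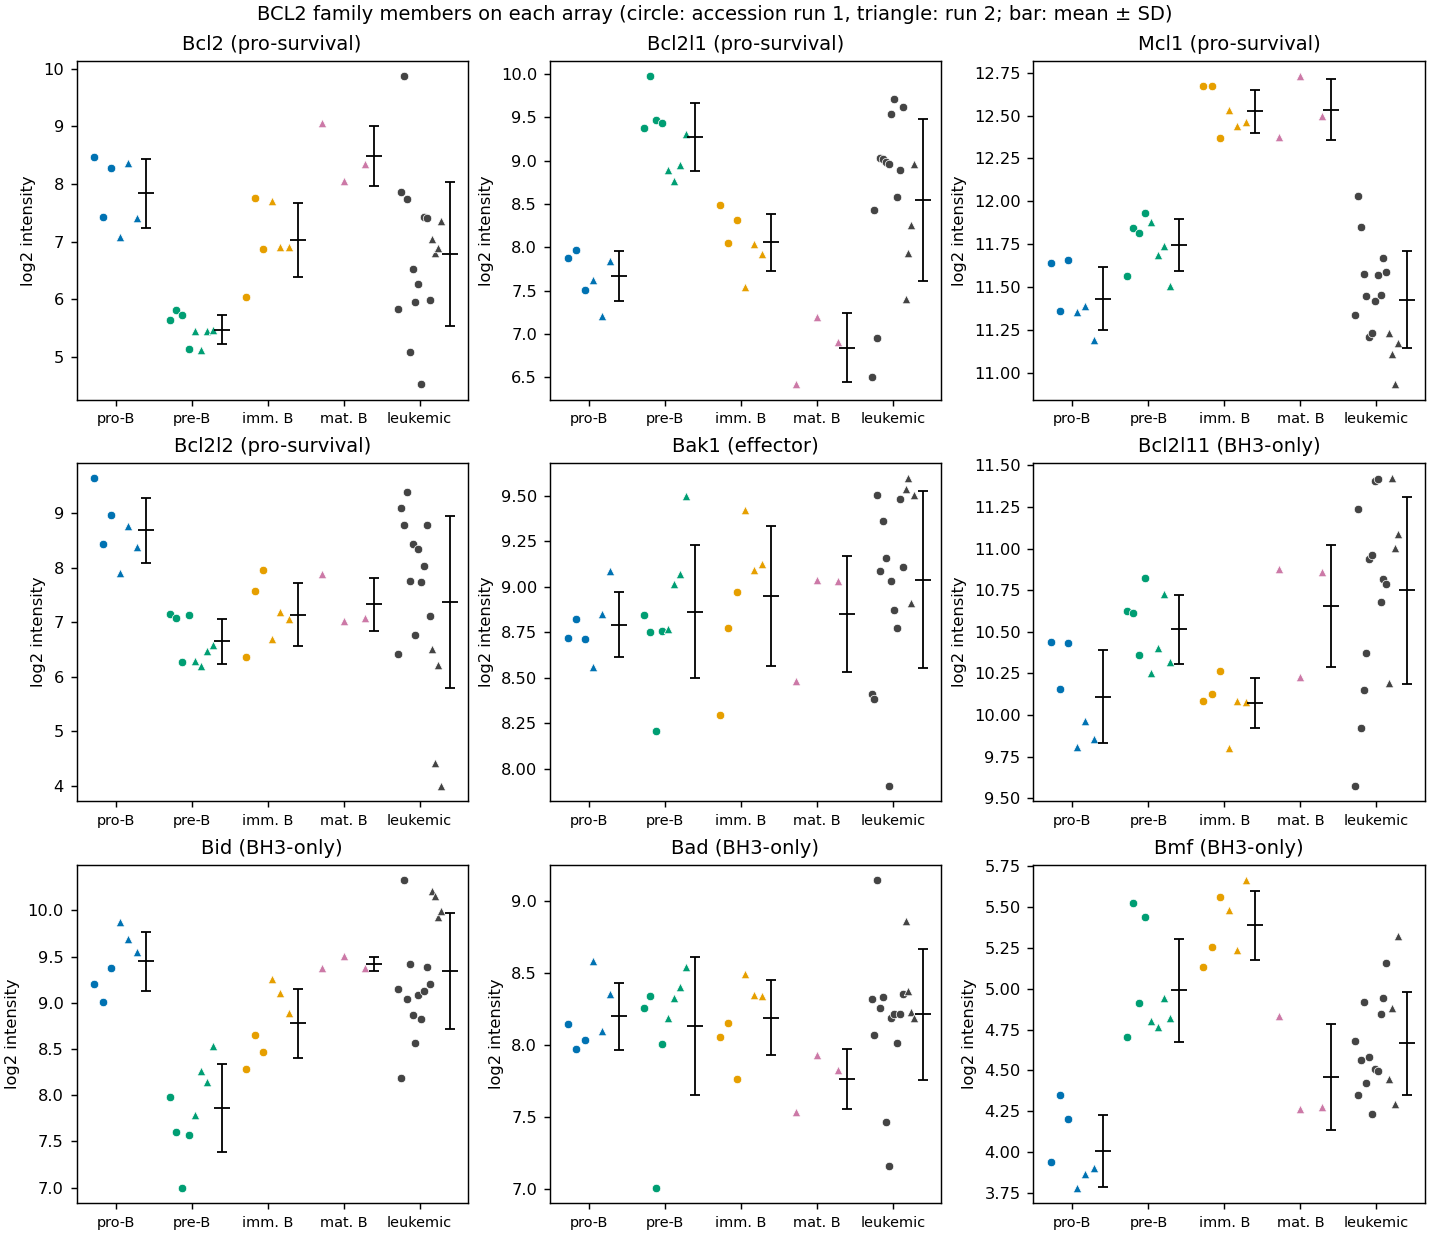
Log2 intensity of the 9 measured members (vertical axis, a separate range for each gene) on each of the 39 arrays, by group, with bars for mean ± SD; circles are arrays of the first accession run and triangles those of the second. Bcl2 and Bid are lowest in pre-B cells, Bcl2l1 is highest there, Mcl1 is highest in immature and mature B cells, and the leukemic arrays spread widely for Bcl2, Bcl2l1 and Bcl2l2.

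In pre-B against pro-B cells, 7 of 9 members passed the test, 4 higher and 3 lower, where 33.6% of all genes passed (17.9% higher and 15.7% lower). The median difference of the 9 members was 0.07, beside 0.11 for all genes. For 5 members the groups did not overlap, 2 higher and 3 lower, as for 10.8% of all genes. Bcl2 lay between 7.08 and 8.46 in pro-B cells (median 7.85) and between 5.12 and 5.81 in pre-B cells (median 5.46). Every pre-B array was below every pro-B array. Bcl2 was thus 5.14-fold lower in pre-B cells, a log2 difference of -2.36 ± 0.26 (SE, limma adjusted p = 2.67e-07).

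Bcl2l1 went the other way. It lay between 7.21 and 7.97 in pro-B cells (median 7.73) and between 8.77 and 9.97 in pre-B cells (median 9.34), again with no overlap. The log2 difference was 1.60 ± 0.19, or 3.03-fold, with a limma adjusted p of 5.69e-07. Bcl2l2, the least studied of the pro-survival members in lymphocytes, lay between 7.90 and 9.64 in pro-B cells (median 8.61) and between 6.21 and 7.15 in pre-B cells (median 6.53). All pre-B arrays were below all pro-B arrays, by -2.03 ± 0.27 on the log2 scale (limma adjusted p = 2.86e-06), but only this 1 of its 4 probe sets changed.

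Mcl1, a short-lived protein that binds both Bak and Bim, rose by a smaller amount. It was at 11.19 to 11.66 in pro-B cells (median 11.37) and at 11.51 to 11.93 in pre-B cells (median 11.78). The ranges overlapped, with 6 of 8 pre-B arrays above all pro-B arrays and a log2 difference of 0.31 ± 0.09 (limma adjusted p = 0.00793). This call was lost within the first accession run (0.24, adjusted p = 0.163) and held within the second (0.39, adjusted p = 0.0160).

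Among the death genes, Bid, which links death receptors to mitochondria once caspase-8 has cut it, fell. It lay between 9.0 and 9.87 in pro-B cells (median 9.46) and between 7.0 and 8.53 in pre-B cells (median 7.88). The groups did not overlap, and the log2 difference was -1.59 ± 0.20 (limma adjusted p = 1.71e-06), or 3.01-fold. Bmf, a BH3-only protein held on the cytoskeleton, rose. It was dim in pro-B cells, at 3.78 to 4.35 with 1 of 6 arrays below the background limit, and lay at 4.71 to 5.53 in pre-B cells. No array overlapped, and the log2 difference was 0.98 ± 0.16 (limma adjusted p = 4.46e-05).

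Bcl2l11, whose product Bim binds all pro-survival members, rose by 0.41 ± 0.13 on the log2 scale (limma adjusted p = 0.0191), from 9.81 to 10.44 in pro-B cells (median 10.06) to 10.25 to 10.82 in pre-B cells (median 10.51). Of 8 pre-B arrays, 4 were above every pro-B array. The call was lost without pro-B array 1 (0.35, adjusted p = 0.052) or pro-B array 3 (0.35, adjusted p = 0.051), and within the first accession run (0.26, adjusted p = 0.157). Bak1, which can form pores without Bax, differed by 0.07 ± 0.17, and Bad, which is inactivated by growth-factor kinases, by -0.06 ± 0.19, and neither passed. Within each accession run Bcl2 (-2.47 and -2.25), Bcl2l1 (1.78 and 1.42), Bcl2l2 (-2.11 and -1.96), Bid (-1.65 and -1.52) and Bmf (0.99 and 0.98) passed. Other-cell markers moved with this comparison. Of 13 T and NK markers 11 passed as lower in pre-B cells and 1 as higher. Of 9 plasmacytoid dendritic markers it was 8 and 1, and of 15 myeloid markers 12 and 0.

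The 3 members that fell in pre-B cells, Bcl2, Bid and Bcl2l2, all carry a GC box just before their RefSeq start. A GC box is the site of Sp1-type activators. The sequences show the 250 bases before each start, 5′ to 3′ on the gene's own strand, with the letters GGGGCGGGG or their reverse complement in capitals. They are from RefSeq on build GRCm38.p6, at chr1:106714291-106714540 (minus strand) for Bcl2, chr6:120916825-120917074 (minus strand) for Bid and chr14:54883175-54883424 (plus strand) for Bcl2l2.
Bcl2: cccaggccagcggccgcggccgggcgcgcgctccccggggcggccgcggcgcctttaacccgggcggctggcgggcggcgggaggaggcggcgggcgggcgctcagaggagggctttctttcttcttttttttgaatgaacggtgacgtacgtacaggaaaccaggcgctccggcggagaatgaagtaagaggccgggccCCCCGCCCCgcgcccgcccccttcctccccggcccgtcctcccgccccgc
Bid: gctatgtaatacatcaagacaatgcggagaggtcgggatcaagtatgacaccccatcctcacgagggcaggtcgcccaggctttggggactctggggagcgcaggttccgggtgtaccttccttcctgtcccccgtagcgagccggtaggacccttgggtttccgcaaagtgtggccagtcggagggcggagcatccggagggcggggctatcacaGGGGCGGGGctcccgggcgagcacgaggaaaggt
Bcl2l2: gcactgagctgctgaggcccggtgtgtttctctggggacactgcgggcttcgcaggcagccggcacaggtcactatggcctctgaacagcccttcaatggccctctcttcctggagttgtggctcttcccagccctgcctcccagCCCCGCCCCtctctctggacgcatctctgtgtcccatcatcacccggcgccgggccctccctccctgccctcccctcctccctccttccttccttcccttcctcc

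The match began 50 bases before the start in Bcl2, 34 in Bid and 105 in Bcl2l2. On either strand these letters occurred in 10.4% of 32851 promoter windows of the same length, and in 11.8% of 27025 genes. All 10 listed genes had a window, and 5 of them held the letters: the other two were Bcl2l11, which rose in pre-B cells, and Bax. The letters GTAAACA, bound by FOXO factors, occurred in Bcl2l11 alone among the 10 and in 3.54% of all genes. CACGTG, an E-box of the kind Myc binds, occurred in Bax alone and in 6.86% of all genes. TTCNNNGAA, the STAT letters, and TGACGTCA, the letters of a cAMP response element, occurred in none of the 10, and in 8.13% and 1.77% of all genes. These are matches of letters within windows of 250 bases before to 50 after a start, and do not show that a factor was bound.

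In immature B against pre-B cells, 5 of 9 members passed, 3 higher and 2 lower, where 19.6% of all genes passed (10.9% higher and 8.70% lower). The median difference of the members was 0.40, beside -0.06 for all genes. For 3 members the groups did not overlap, as for 9.67% of all genes. Bcl2 was at 6.04 to 7.77 in immature B cells (median 6.90), above every pre-B array, with a log2 difference of 1.56 ± 0.26 (limma adjusted p = 9.08e-05). Within the first accession run the difference was 1.31 and did not pass (adjusted p = 0.0536), and within the second it was 1.80 and did (adjusted p = 0.0023). Bcl2l1 was at 7.54 to 8.48 (median 8.04), below every pre-B array, by -1.21 ± 0.19 (limma adjusted p = 3.14e-05).

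Mcl1 had its step at this transition. It lay between 12.37 and 12.67 in immature B cells (median 12.50), above every pre-B array, with a log2 difference of 0.78 ± 0.09 (limma adjusted p = 3.12e-07). The difference was 0.78 within each accession run. All 6 of its probe sets passed in this comparison, with differences of 0.71 to 1.38, where 18.3% of all probe sets passed.

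Bid rose by 0.92 ± 0.20 (limma adjusted p = 0.00152), to 8.28 to 9.26 in immature B cells (median 8.77). Of 6 immature B arrays, 4 were above every pre-B array, and its second probe set differed by 0.65 ± 0.24 and did not pass (adjusted p = 0.0557). Bcl2l11 fell by 0.44 ± 0.13 on the log2 scale (limma adjusted p = 0.0146), to 9.80 to 10.26 (median 10.08), with 5 of 6 arrays below every pre-B array. Within the runs it differed by -0.44 in each, and passed in the first (adjusted p = 0.0446) and not in the second (adjusted p = 0.0902). Bmf was at 5.13 to 5.67, its highest level, but the difference of 0.40 ± 0.16 from pre-B cells did not pass (limma adjusted p = 0.0818). Bcl2l2 differed by 0.49 ± 0.27, Bak1 by 0.08 ± 0.17 and Bad by 0.06 ± 0.19, and none of these passed. Of 15 myeloid markers, 6 passed as higher in immature B than in pre-B cells and none as lower. Of 7 erythroid markers 3 passed as higher and none as lower, and of 13 T and NK markers 5 as lower and none as higher. The part of those cells in the members' values was not tested.

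In mature against immature B cells, 4 of 9 members passed, 2 in each direction, where 5.25% of all genes passed (1.96% higher and 3.29% lower). For 4 members the groups did not overlap, as for 10.7% of all genes. Bcl2 was at 9.06, 8.06 and 8.35 in the 3 mature B arrays. All 3 were above every immature B array, by 1.46 ± 0.34 on the log2 scale (limma adjusted p = 0.0106). Bcl2l1 was at 6.42, 7.2 and 6.91, below every immature B array, by -1.21 ± 0.24 (limma adjusted p = 0.00302).

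Bcl2l11 was at 10.88, 10.23 and 10.86 in mature B cells, so that 2 of 3 arrays were above every immature B array. The log2 difference was 0.58 ± 0.17 (limma adjusted p = 0.0410). Bmf was at 4.84, 4.27 and 4.27, below every immature B array, by -0.93 ± 0.21 (limma adjusted p = 0.00706). Mcl1 was at 12.38, 12.73 and 12.50, within 0.01 ± 0.11 of the immature B mean.

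Single arrays carried several of these calls. Without mature B array 1, Bcl2 differed by 1.17 (limma adjusted p = 0.144) and Bcl2l1 by -1.0 (adjusted p = 0.060), and 1 member passed in place of 4, where 241 or 1.94% of all genes passed in place of 651. Without mature B array 3, Bmf differed by -0.84 (adjusted p = 0.065) and 2 members passed, beside 364 or 2.94% of all genes. With the mean of all probe sets Bcl2l11 differed by 0.20 (adjusted p = 0.655). When all 39 arrays shared 1 estimate of the spread, no call stood for Bcl2 (adjusted p = 0.327), Bcl2l1 (0.232) or Bcl2l11 (0.454). The Bcl2l11 call was also lost in 7 of 23 fits that left out an array, with differences of 0.47 without mature B array 1 to 0.59 without immature B array 5, and adjusted p-values up to 0.284. Among the second accession run alone, where all mature B arrays lie, Bcl2 differed by 1.32 (adjusted p = 0.0571), Bcl2l1 by -0.99 (adjusted p = 0.0418), Bcl2l11 by 0.67 (adjusted p = 0.0512) and Bmf by -1.0 (adjusted p = 0.0201).

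Over the whole path, mature B against pro-B cells, 4 of 9 members passed, 2 in each direction, where 28.1% of all genes passed (13.6% higher and 14.6% lower). Mcl1 was 1.10 ± 0.11 higher (limma adjusted p = 7.46e-08) and Bcl2l11 0.55 ± 0.17 higher (adjusted p = 0.0166). Bcl2l1 was lower by -0.83 ± 0.24 (adjusted p = 0.0137) and Bcl2l2 by -1.35 ± 0.35 (adjusted p = 0.00516). With the mean of all probe sets, Bcl2l11 differed by 0.12 (adjusted p = 0.611) and Bcl2l2 by -0.40 (adjusted p = 0.119), so both calls ended, and the other Bcl2l11 probe sets lay between -0.32 and 0.18. With quantile normalization Bcl2l1 was at -0.70 (adjusted p = 0.0689). When all 39 arrays shared 1 estimate of the spread, Mcl1 alone of these 4 passed, and the adjusted p was 0.211 for Bcl2l1, 0.177 for Bcl2l11 and 0.213 for Bcl2l2. Bcl2 differed by 0.65 ± 0.34 and did not pass (adjusted p = 0.157). Without mature B array 1, 2 members passed, beside 20.8% of all genes. In that fit Bcl2l1 differed by -0.62 (adjusted p = 0.114) and Bcl2l11 by 0.44 (adjusted p = 0.109). Bcl2l11 was also lost without mature B array 3 (0.44, adjusted p = 0.095). Of 13 T and NK markers 11 passed as lower and 1 as higher in mature B against pro-B cells, with list means of 5.32 to 5.82 against 7.61 to 9.39. Of 9 plasmacytoid dendritic markers 7 passed as lower and 1 as higher. Their part in the members' values was not tested. Bcl2 ran, from high to low mean, mature B 8.49, pro-B 7.84, immature B 7.03 and pre-B 5.48, and mature B and pro-B did not differ beyond their spread. For Bcl2l1 the order was pre-B 9.27, immature B 8.06, pro-B 7.67 and mature B 6.84, and immature B and pro-B were not tested against each other.

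**Figure D2:**
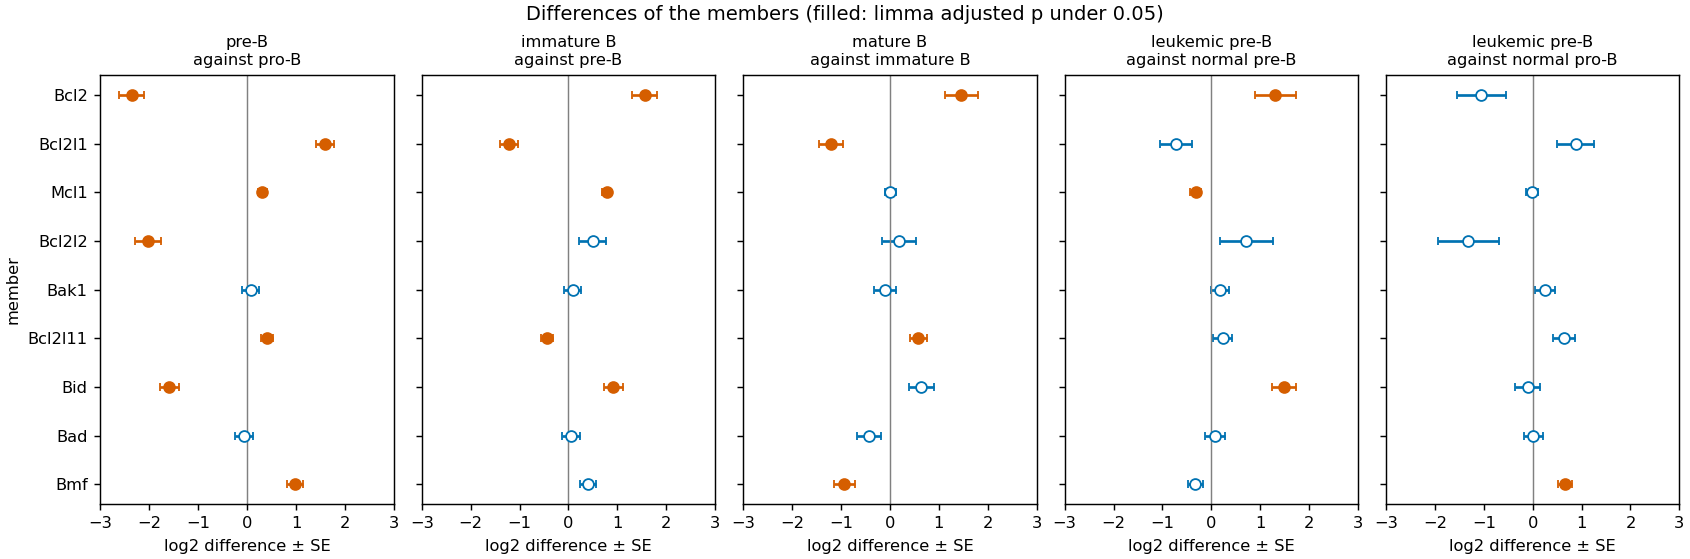
Log2 difference of each measured member (horizontal axis, mean difference ± SE from limma) in 5 comparisons; filled points passed at an adjusted p of 0.05 over all genes. Bcl2 is at -2.36 and Bcl2l1 at 1.60 in pre-B against pro-B cells, both change sign at the next step, and in leukemic against normal pre-B cells only Bcl2, Mcl1 and Bid are filled.

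The comparison of leukemic with normal pre-B cells, which were sorted with the same markers, addresses which genes differ at a matched surface phenotype. Of 9 members, 3 passed, 2 higher and 1 lower, where 16% of all genes passed (8.5% higher and 7.53% lower). The median difference of the members was 0.18, beside -0.01 for all genes. The normal pre-B arrays are also the control of the stage comparisons, so those values are not independent of these.

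Bid gave the clearest difference. The leukemic arrays lay between 8.19 and 10.33 (median 9.18), and 15 of 16 were above the highest normal pre-B array at 8.53. The exception was array 117, at 8.19. The log2 difference was 1.48 ± 0.24, or 2.79-fold, with a limma adjusted p of 8.37e-05. It stayed between 1.36 and 1.58 when any 1 array was left out, and was 1.42 without array 122 (adjusted p = 8.85e-05). Within the accession runs it was 1.56 and 1.89, and its second probe set differed by 1.35 ± 0.26 (adjusted p = 0.000545).

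Bcl2 lay between 4.53 and 9.86 on the leukemic arrays (median 6.85). Of the 16, 14 exceeded the highest normal pre-B value of 5.81, while arrays 154 (5.09) and 228 (4.53) lay under the lowest. The log2 difference was 1.31 ± 0.43, or 2.48-fold (limma adjusted p = 0.0348). Without array 122, the highest, it was 1.11 ± 0.34 (adjusted p = 0.0233), and without array 116 it was 1.38 ± 0.43 (adjusted p = 0.0292). Leaving out pre-B array 1, 2, 3, 4 or 8, or leukemic array 153, took the adjusted p past 0.05, to at most 0.066, with the difference at 1.25 to 1.31. It was also lost within the first accession run (1.13, adjusted p = 0.390) and held within the second (1.65, adjusted p = 0.0016).

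Mcl1 was lower on the leukemic arrays, at 10.93 to 12.03 (median 11.43). Of these 10 were below every normal pre-B array and 1, array 117, was above every one. The log2 difference was -0.32 ± 0.11 (limma adjusted p = 0.0387), a 1.25-fold difference close to the threshold. The call was lost in 12 of 24 fits that left out 1 array, 6 of them pre-B and 6 leukemic arrays, with differences of -0.33 to -0.29 and adjusted p-values up to 0.086. Within the accession runs it was -0.26 (adjusted p = 0.261) and -0.59 (adjusted p = 0.0039). Without array 116 the difference was -0.31 (adjusted p = 0.051), and without array 122 it was -0.35 (adjusted p = 0.0181). Without arrays 116 and 122 it was -0.34 (adjusted p = 0.0240).

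Bcl2l1 lay between 6.5 and 9.71 on the leukemic arrays (median 8.92). None was above every normal pre-B array, and 7 were below every one. The log2 difference of -0.72 ± 0.33 did not pass (limma adjusted p = 0.151). Without array 116 Bcl2l1 differed by -0.59 (adjusted p = 0.183) and without array 122 by -0.62 (adjusted p = 0.191). Without both arrays Bcl2l1 differed by -0.46 (adjusted p = 0.221). Its other 3 probe sets did pass, with differences of -1.45 ± 0.43 (adjusted p = 0.0219), -1.70 ± 0.46 (adjusted p = 0.0112) and -0.39 ± 0.09 (adjusted p = 0.00457), where 15.5% of all probe sets passed. The last of these lay under the background limit in every group mean. With the mean of all probe sets Bcl2l1 differed by -1.07 and passed (limma adjusted p = 0.0212), where 16.3% of all genes did.

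The other members did not pass. Bcl2l2 differed by 0.72 ± 0.54 (limma adjusted p = 0.445), Bcl2l11 by 0.23 ± 0.20, Bak1 by 0.18 ± 0.19, Bad by 0.08 ± 0.20 and Bmf by -0.33 ± 0.15. Of 15 myeloid markers 6 passed as lower on the leukemic arrays and none as higher, with differences of -3.61 to 2.33. Their list means were 4.95 to 9.72 against 7.22 to 9.33 in normal pre-B cells. Of 9 plasmacytoid dendritic markers 4 passed as lower, and of 13 T and NK markers 3, with none of either as higher. The part of such cells in the members' values was not tested.

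**Figure D3:**
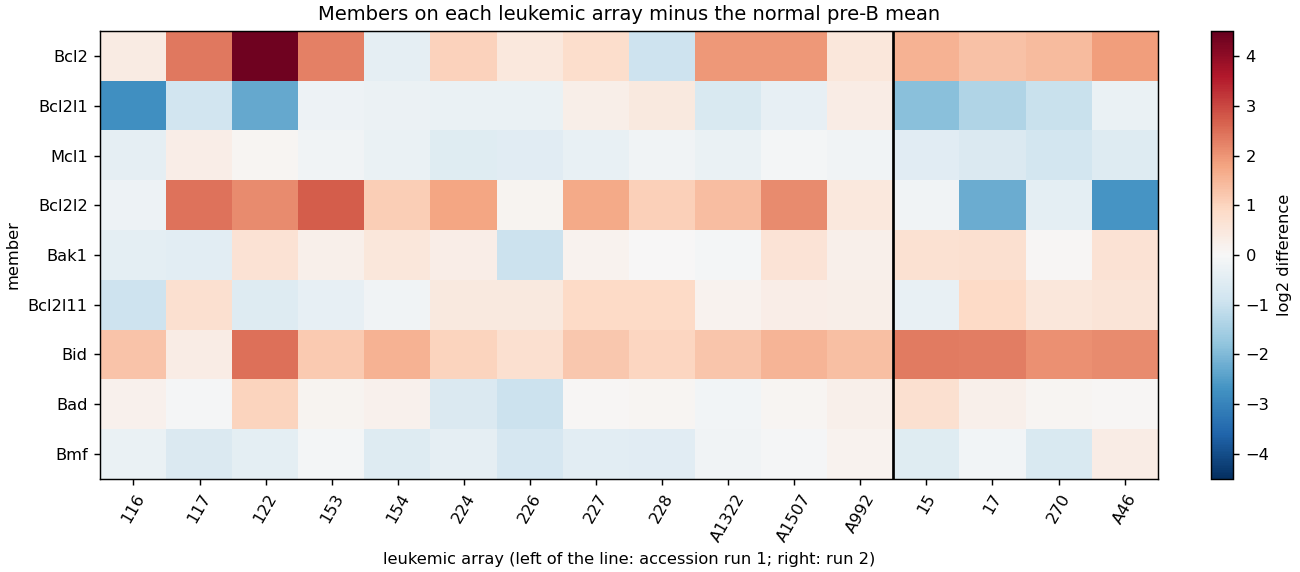
Each measured member (vertical axis) on each leukemic array (horizontal axis) as the log2 difference from the normal pre-B mean, red for higher and blue for lower; the line separates the 2 accession runs. Bid is higher on all 16 arrays, Bcl2 reaches its highest value on array 122, and Bcl2l2 is lowest on arrays 17 and A46.

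Against normal pro-B cells, the less mature stage, 1 of 9 members passed on the leukemic arrays, where 15.7% of all genes passed (8.11% higher and 7.63% lower). The median difference of the members was 0.01, beside 0.13 for all genes. Bmf was at 4.23 to 5.32 (median 4.57), and 14 of 16 leukemic arrays were above every pro-B array. The log2 difference was 0.66 ± 0.15 (limma adjusted p = 0.00561), with the pro-B arrays close to background. It was 0.48 within the first accession run (adjusted p = 0.214) and 0.89 within the second (adjusted p = 0.0836), and passed in neither.

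This count depended on single leukemic arrays, and the share of all genes on single pro-B arrays: without pro-B arrays 1, 2, 3 or 6 it was 10.4%, 6.94%, 10.1% and 7.72%. Bmf was at 0.52 with quantile normalization (limma adjusted p = 0.0619). Without array 122, 4 members passed and 22% of all genes did. Bcl2 was then lower by -1.25 ± 0.41 (limma adjusted p = 0.0321), and Bcl2l1 was 0.98 ± 0.34 higher (adjusted p = 0.0446) and Bcl2l11 0.70 ± 0.22 higher (adjusted p = 0.0285), with Bmf at 0.67 (adjusted p = 0.00489). Without array 116, where 15.2% of all genes passed, 3 members did, all higher: Bmf, Bcl2l1 (1.01, adjusted p = 0.0370) and Bcl2l11 (0.72, adjusted p = 0.0221). Without arrays 153 or 15, 2 passed, Bmf and Bcl2l11, where 15.98% and 17.62% of all genes did. On all 16 arrays Bcl2 differed by -1.05 ± 0.50 (adjusted p = 0.138), Bcl2l1 by 0.88 ± 0.37 (adjusted p = 0.0986) and Bcl2l11 by 0.64 ± 0.23 (adjusted p = 0.0577).

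Bid, which was higher than in normal pre-B cells, differed from pro-B cells by -0.11 ± 0.26 (adjusted p = 0.796), with a leukemic mean of 9.34 and a pro-B mean of 9.45. Mcl1 differed by -0.01 ± 0.12, Bad by 0.01 ± 0.20 and Bak1 by 0.25 ± 0.20, and none of them passed. Bcl2l2 differed by -1.32 ± 0.62 and did not pass (adjusted p = 0.132). It was -0.96 in the first accession run (adjusted p = 0.331) and -3.06 in the second (adjusted p = 0.0317), and passed with the run as a covariate (-1.84, adjusted p = 0.0109). All 13 T and NK markers had lower means on the leukemic than on the pro-B arrays, and 10 of them passed. All 9 plasmacytoid dendritic markers and 8 of 15 myeloid markers also passed as lower, and none as higher. The part of such cells in these differences was not tested.

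Some members spread widely over the leukemic arrays, which was not tested. The SD of Bcl2 was 1.25 over 16 leukemic arrays and 0.98 without arrays 116 and 122, against 0.25 in pre-B, 0.60 in pro-B and 0.64 in immature B cells. For Bcl2l1 it was 0.93, or 0.65 without those arrays, against 0.39 in pre-B cells, and for Bcl2l2 1.58 against 0.41. Bad (0.45 against 0.48) and Bmf (0.32 against 0.32) spread about as much over normal pre-B arrays. The widest member was Bcl2l2, which was at 4.0 on array A46 and 4.42 on array 17, below every normal array, and at 9.38 on array 153. Arrays A46 and 17 were in the second accession run. The leukemic Bcl2l2 mean was 8.06 ± 0.93 (SD, n = 12) in the first run and 5.29 ± 1.26 (n = 4) in the second. On its other probe sets the leukemic SD was 0.25, 0.33 and 0.57. The part of the run in this spread was not tested. Against normal pre-B cells Bcl2l2 differed by 1.15 in the first accession run and by -1.10 in the second, and neither difference passed.

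Array 116 had the lowest Bcl2l1 (6.5) and the lowest Bcl2l11 (9.57) of the leukemic arrays, with Bcl2 at 5.83. Array 228 combined the lowest Bcl2 (4.53) with the highest Bcl2l1 (9.71) and a Bcl2l11 of 11.42. Array 122 combined the highest Bcl2 (9.86), Bid (10.33) and Bad (9.14) with a Bcl2l1 of 6.96. Array 117 had the highest Mcl1 (12.03) and the lowest Bid (8.19).

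**Figure D4:**
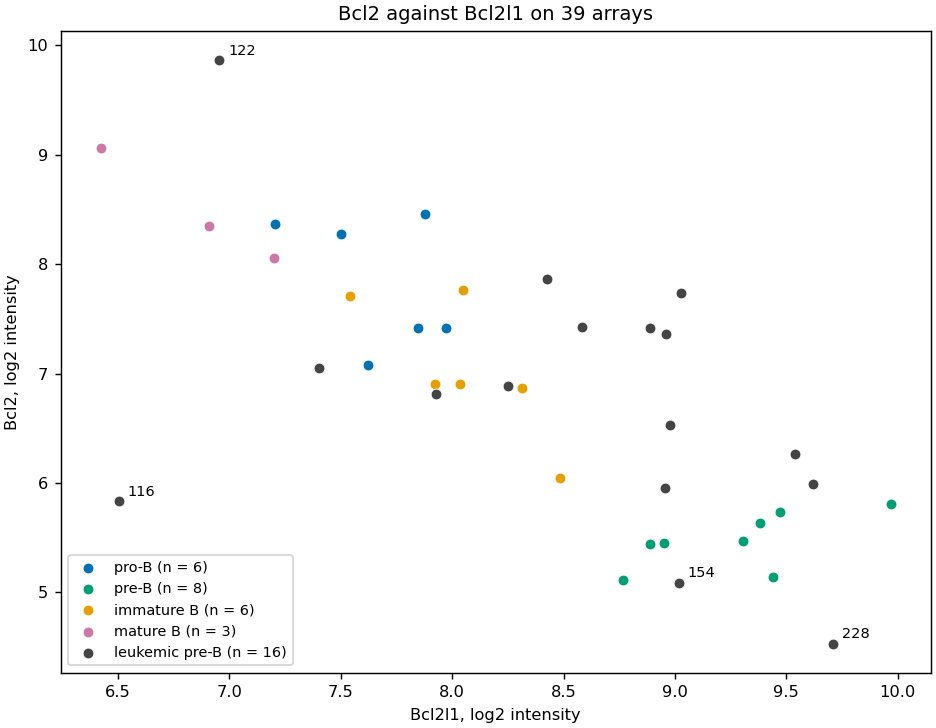
Log2 intensity of Bcl2 (vertical axis) against Bcl2l1 (horizontal axis) on all 39 arrays, 1 point an array, coloured by group. Normal pre-B arrays sit at the lower right, with Bcl2 at most 5.81 and Bcl2l1 at least 8.77, mature B arrays at the upper left, and the leukemic arrays reach from array 122 (Bcl2 at 9.86) to array 228 (Bcl2 at 4.53).

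Pairs of members were compared over the 16 leukemic arrays, 36 pairs in all, with Pearson's r and Spearman's rho and two-sided permutation tests of 100000 resamples. With Benjamini-Hochberg adjustment over the 36 pairs, 3 passed by either measure. Bak1 and Bid had r = 0.76 (permutation p = 0.00069, adjusted p = 0.0248) and rho = 0.79 (p = 0.00037, adjusted p = 0.0133). Leaving out the 2 arrays farthest from the median of Bak1 gave r = 0.64, the 12 arrays of the first accession run gave 0.72, and the 15 arrays other than 122 gave 0.74.

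Mcl1 and Bcl2l2, both pro-survival, had r = 0.72 (permutation p = 0.00176, adjusted p = 0.0263) and rho = 0.77 (p = 0.00079, adjusted p = 0.0142). The r was 0.72 without the 2 extreme arrays, 0.58 in the first run and 0.70 without array 122. Bcl2l2 was read here on the probe set with a leukemic SD of 1.58, against 0.25, 0.33 and 0.57 on its others. Bid and Bad had r = 0.69 (permutation p = 0.00219, adjusted p = 0.0263) and rho = 0.73 (p = 0.00198, adjusted p = 0.0238). That r fell to 0.50 without the 2 extreme arrays and was 0.61 without array 122. The second run held 4 leukemic arrays, too few for a correlation. All p-values of pairs are over the arrays of both runs. From the first to the second run the leukemic mean of Mcl1 went from 11.53 to 11.11 and that of Bcl2l2 from 8.06 to 5.29. Bak1 went from 8.92 to 9.39, Bid from 9.10 to 10.07 and Bad from 8.14 to 8.41. The part of the run in these correlations was not tested. Bcl2 and Bcl2l1, the pair that ran in opposite directions over the normal stages, had r = -0.44 (permutation p = 0.0894, adjusted p = 0.306), and r = -0.21 without array 122.

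No member differed between the 5 leukemic arrays with pIpC in the description and the 11 without it, where 0% of all genes passed by limma. At an unadjusted p of 0.05 the count of members was also 0. Bmf came closest, at 5.32, 5.16, 4.94, 4.84 and 4.29 with pIpC and 4.23 to 4.92 without (median 4.51), so that 3 of 5 arrays were above all others. Its log2 difference was 0.36 ± 0.18 (limma adjusted p = 0.933). With 5 against 11 arrays, Bcl2 differed by 0.33 ± 0.63 and Bcl2l2 by -0.77 ± 0.78, so changes of this size were not detectable.

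As a description of both sides together, the mean log2 intensity of the 5 measured death genes was subtracted from that of the 4 pro-survival genes on each array, relative to the normal pre-B mean. The balance was 0.58 ± 0.33 (SD, n = 6) in pro-B cells, 0.20 ± 0.28 (n = 6) in immature B cells and 0.36 ± 0.14 (n = 3) in mature B cells, beside a pre-B SD of 0.35 (n = 8). On the leukemic arrays it was -0.08 ± 0.73 (n = 16), with 2 arrays above and 5 below every normal pre-B array. These means depended on how members were summarised: with medians in place of means over members, the balance of pro-B cells was -0.24, that of immature B cells -0.90, that of mature B cells -0.74 and that of the leukemic arrays -0.56. With the mean of all probe sets the leukemic balance was -0.30, and with quantile normalization -0.05.

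Single pairs separated the stages more widely. Bcl2 minus Bcl2l11, again relative to pre-B cells, was 2.77 ± 0.45 in pro-B, 2.0 ± 0.71 in immature B and 2.87 ± 0.35 in mature B cells, and every such array was above every pre-B array. On the leukemic arrays it was 1.08 ± 1.5, with 11 of 16 above and 1 below every pre-B array. Bcl2 minus Bcl2l1, a difference chosen after its values were seen, was 3.96 ± 0.76 in pro-B, 2.77 ± 0.91 in immature B and 5.44 ± 0.91 in mature B cells. On the leukemic arrays it was 2.04 ± 1.86, and 13 of 16 lay above every pre-B array.

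Members with several probe sets were read on each of them. The brighter probe sets of Bcl2l1 gave the same course as the one used: pre-B against pro-B cells differed by 2.29 ± 0.20 and 2.44 ± 0.26 on 2 further probe sets, where 30.5% of all probe sets passed, and mature against immature B cells by -1.69 ± 0.26 and -2.26 ± 0.34, where 4.85% did. Probe sets of Bcl2l2 did not move together. The one used differed by -2.03 in pre-B against pro-B cells, and the other 3 by 0.25 ± 0.17, 0.10 ± 0.17 and -0.40 ± 0.20, none of which passed. Those 3 had group means of 4.61 to 5.42.

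Bid fell in pre-B cells on both of its probe sets, by -1.59 and -1.46 ± 0.24 (limma adjusted p = 4.76e-05). The second Bak1 probe set was lower in mature B than in pro-B cells by -0.94 ± 0.30 (adjusted p = 0.0236), where 26.9% of all probe sets passed and the one used differed by 0.06. Neither Bad probe set passed in any comparison. Of the 5 Bcl2l11 probe sets, only the one used passed in mature against immature B cells, and the others differed by -0.09 to 0.22. In leukemic against pro-B cells, 2 of the 5 passed, by 0.91 and 0.84, where 14.6% of all probe sets passed, and all 5 were higher.

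**Figure D5:**
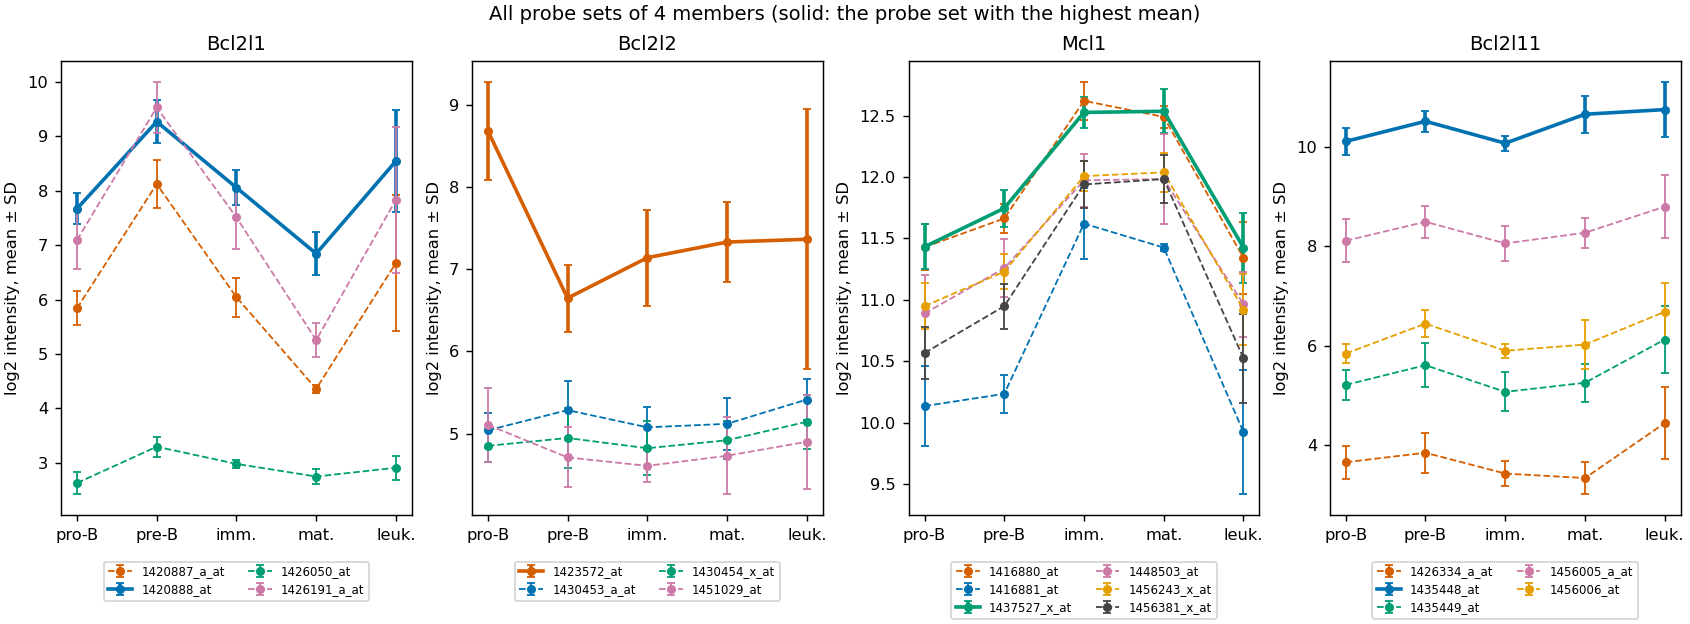
Mean log2 intensity ± SD (vertical axis) of each probe set of Bcl2l1, Bcl2l2, Mcl1 and Bcl2l11 in the 5 groups; the solid line is the probe set used for the gene. The probe sets of Mcl1 run in parallel, as do the bright ones of Bcl2l1, while for Bcl2l2 the pro-B peak of 8.68 is seen on 1 of 4.

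Genes that act beside the members were taken from lists of the pathway. Of 9 other measured BCL2 family genes, 4 passed in pre-B against pro-B cells, where 33.6% of all genes did. Bok, an effector-like member, was lower by -1.27 ± 0.19. The BH3-only genes Hrk (0.51) and Bik (0.37) and the related mitochondrial gene Bnip3 (0.71) were higher. Bnip3 fell again in immature B cells (-0.90). In leukemic against normal pre-B cells, where 16% of all genes passed, 1 of the 9 did, Bok, at 4.67 to 9.41 on the leukemic and 5.18 to 5.90 on the pre-B arrays, a log2 difference of 1.76 ± 0.51 (limma adjusted p = 0.0184). Pmaip1 (Noxa), which neutralises Mcl1, differed by 0.93 ± 0.38 there and did not pass (limma adjusted p = 0.103). Against pro-B cells, Bnip3 (0.72) and Hrk (0.59) passed, 2 of 9 where 15.7% of all genes did.

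Of 16 genes of the apoptosome, the caspases and mitochondrial release, 3 passed in pre-B against pro-B cells, a smaller share than the 33.6% of all genes, all higher: Casp9 (0.49), Dffa, the inhibitor of the apoptotic nuclease (0.49), and Apaf1 (0.22). In immature B against pre-B cells Casp9 was higher by 0.73 ± 0.17, while Apaf1 (-0.47) and cytochrome c, Cycs (-0.46), were lower, among 5 that passed where 19.6% of all genes did. In mature B cells Apaf1 was lower than in immature B cells by -0.39 ± 0.11, the only one of the 16 to pass where 5.25% of all genes did.

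In leukemic against normal pre-B cells 6 of these 16 passed, 3 in each direction, where 8.5% of all genes passed as higher and 7.53% as lower. The lower ones were the caspases Casp6 (-0.83 ± 0.27) and Casp9 (-0.60 ± 0.21) and Apaf1 (-0.41 ± 0.11). The higher ones were the mitochondrial nuclease Endog (0.92 ± 0.25), Vdac2, a channel that holds Bak (0.37 ± 0.10), and Vdac1 (0.19). The median of the 16 was 0.11, beside -0.01 for all genes. Against pro-B cells 1 of the 16 passed, as higher on the leukemic arrays, where 15.7% of all genes passed.

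Caspase inhibitors and death receptors were few, with 6 and 5 measured. In pre-B against pro-B cells 1 of 6 inhibitors and 1 of 5 receptors passed, where 33.6% of all genes did. In immature B against pre-B cells 2 and 1 passed (19.6% of all genes), and in mature against immature B cells 1 and 0 (5.25%). In mature B against pro-B cells 3 and 0 passed (28.1%). On the leukemic arrays 1 and 0 passed against normal pre-B cells (1987 of 12393 genes), and 0 and 1 against pro-B cells (15.7%). Birc3 (cIAP2), which is induced by NF-kappaB, was higher in pre-B than in pro-B cells (0.84 ± 0.16), rose again in immature B cells (0.59 ± 0.16), and was lower on the leukemic than on the normal pre-B arrays by -1.23 ± 0.20 (limma adjusted p = 5.84e-05), with 13 of 16 below every pre-B array. Birc5 (survivin), a protein of dividing cells, was lower in immature B than in pre-B cells (-1.38) and in mature than in immature B cells (-0.93). Tnfrsf1a, a TNF receptor, was lower in pre-B than in pro-B cells (-2.26 ± 0.41) and lower on the leukemic than on the pro-B arrays (-1.70 ± 0.54). Fas was higher in immature B than in pre-B cells (1.33 ± 0.26).

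Of 21 measured regulators of the family, 12 passed in pre-B against pro-B cells, 8 higher and 4 lower, where 17.9% and 15.7% of all genes did. The higher ones included Tnfrsf13c, the BAFF receptor (1.39 ± 0.10), Foxo1, an activator of Bcl2l11 (1.03 ± 0.10), and Rel, an NF-kappaB subunit that activates Bcl2l1 (0.91 ± 0.17). The lower ones included Myc (-2.49 ± 0.33), Stat5a, which induces pro-survival members downstream of IL-7 (-0.65 ± 0.11), and Dynll2 (-0.38), which anchors Bmf. In immature B against pre-B cells 10 passed, where 19.6% of all genes did, among them Tnfrsf13c (1.5), Myc (1.08) and Rel (0.81) upward and Il7r, the IL-7 receptor (-1.18), Pim1 (-0.56) and Dynll2 (-0.51) downward. In mature against immature B cells Il7r (-2.45) and Akt1 (-1.03) were lower, 2 of 21 where 3.29% of all genes were.

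On the leukemic arrays 6 of the 21 regulators passed against normal pre-B cells, 1 higher and 5 lower, where 8.5% and 7.53% of all genes did. Myc was at 8.66 to 11.51, with 15 of 16 arrays above every pre-B array, and differed by 2.73 ± 0.29 (limma adjusted p = 2.31e-07). Pim2 (-1.14 ± 0.19) and Pim1 (-0.88 ± 0.18), kinases that phosphorylate Bad, and Rel (-0.77 ± 0.24) were lower. Foxo3, an activator of Bcl2l11, differed by -0.20 ± 0.15 and did not pass. Against pro-B cells 0 of the 21 passed, where 15.7% of all genes did. Their differences, that of Myc included, lay between -0.50 and 0.49. Foxo3 differed by -0.50 ± 0.20 and came nearest to passing (limma adjusted p = 0.0862).

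Over all 39 arrays, the genes most like each of 4 members were found by Pearson's r among 10308 genes, as a description of points that share stage and accession run. For Bcl2 they were Calhm2 (0.83), Icosl (0.83) and Ryr1 (0.83). For Bcl2l1 they were Tcf12 (0.83), Sgk1 (0.81) and Gabpb1 (0.80). Mcl1 was most like Cd40 (0.94), Gm20559 (0.92) and Rfx5 (0.91), and over the 16 leukemic arrays alone these were at 0.79, 0.58 and 0.68. Bcl2l11 had no gene above 0.70, with Phlpp1 (0.70), Ephb4 (0.67) and Pcmtd1 (0.66) the nearest.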

How the data were processed

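Total RNA was extracted with Trizol, 20 ng was amplified and labelled with a NuGEN Ovation Biotin kit, and biotinylated cDNA was hybridised to Affymetrix arrays, per the labels' protocols. The deposited values are intensities on a linear scale, and the submitters' processing notes name RMA as the authors' method. Their log2 was taken here, with no pseudocount. The version, and whether all arrays were normalized together, are not given in the sources used here. RMA forces a shared intensity distribution on arrays processed together and compresses dim signals. The number of arrays limits the precision.

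Of 22690 probe sets, 64 were controls, 691 had several symbols, 1555 had none and 20380 had 1, in the platform annotation. Of these, 20351 had a gene identifier found in RefSeq. Each gene was represented by the brightest of its probe sets, judged on the mean of 39 arrays. Groups came from the sample labels. Tests used limma 3.58.1 in R 4.3.3 (lmFit and eBayes with a trend) on log2 values, with Benjamini-Hochberg adjustment over 12393 genes at 0.05. Leukemic comparisons were fitted on their own groups (24 or 22 arrays), and stage comparisons on the 23 normal arrays. Errors of group means are SD and of differences SE. The fit was tested on simulated data. Permutation tests used scipy 1.17.1 in Python 3.11.15.

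Members and pathway lists were chosen with earlier results of these data known. Among pathway genes, up to 3 that passed in each direction of a comparison were named, and up to 1 that did not. The 3 genes most like a member were named by Pearson's r. Alternatives were another normalization, other choices of probe set, a filter on the dimmest 40% of genes, all arrays in 1 fit, the accession run as a covariate or alone, the replicate number as a block, and leaving out each array. Leaving out arrays 116 and 122 together was chosen after seeing the data.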

Additional observations from a re-analysis of the deposited data

Results flagged for a closer look

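Values of each member within each group of 4 to 10 arrays, 36 sets of values in all, were screened for an array far from its group, and 1 stood apart. Bad, the BH3-only gene inactivated by growth-factor kinases, was at 7.01 on pre-B array 7, and the other 7 pre-B arrays were at 8.0 to 8.54. Its gap to the nearest array was 0.652 of the group's range, above Dixon's critical value of 0.526 for 8 arrays. Chance marks about 1 in 20 groups in this way.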

How the results depend on the processing

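The number of members that passed in pre-B against pro-B and immature B against pre-B cells, and for any stage difference, stayed within 1.5 times under all alternatives run. For leukemic against normal pre-B cells it was 3, and 1 in the first accession run alone, beside 16.03% and 8.08% of all genes. For leukemic against pro-B cells it was 1, beside 15.73% of all genes. It became 0 with quantile normalization (12.47% of all genes) and in the first run alone (2.78%). It was also 0 without the dimmest 40% of genes (10.93%), which left Bmf out of the test. It was 2 with the mean of all probe sets (18.73%) or the run as a covariate (20.14%). It was 3 with all 39 arrays in 1 fit (22.66%). Without arrays 116 and 122, a choice made after seeing the data, it was 4 (21.97%). For mature against immature B cells it was 4, 1 with all 39 arrays and 2 in the second run alone. These stood beside 5.25%, 1.64% and 3.56% of all genes. For mature B against pro-B cells it was 4, 2 with the mean of all probe sets and 1 with all 39 arrays. The shares of all genes were 28.1%, 28.3% and 18.4%. Leaving out each array gave 1 to 3 members in leukemic against pre-B and 1 to 4 in leukemic against pro-B cells. The shares of all genes were 13.05% to 19.03% and 6.94% to 22.41%. In pre-B against pro-B it gave 6 to 7 members, and in immature against pre-B cells 5 to 6. These stood beside 25.74% to 38.998% and 16.8% to 22.93% of all genes. In mature against immature B it gave 1 to 4, and in mature B against pro-B cells 2 to 4. There the shares of all genes were 1.94% to 6.46% and 20.77% to 30.19%. The balance of pro-B cells was 0.15 with the mean of all probe sets; with medians over members it was -0.24 for pro-B, -0.90 for immature B and -0.74 for mature B cells. Over all genes, the count for leukemic against pro-B cells was 1950, with 813 without the dimmest 40% and 344 or 786 within a run, and that for mature against immature B cells was 651, with 203 in the fit of all 39 arrays and 1026 with a run covariate. The cause was not tested for any of these, apart from the genes or arrays left out.

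Same-numbered normal arrays of a run correlated about as differently numbered ones did, so a pairing is not shown. Their deviations from group means correlated at -0.451 to 0.661 over 25 pairs (median 0.271), with 16 above 0.1. For 71 differently numbered pairs of the same run the median was 0.273, with 46 above 0.1. With deviations from group and run means the medians were 0.037 and -0.029. With the replicate block, 7 members passed in pre-B against pro-B cells, then 6 for immature B against pre-B, 4 in mature against immature B, 4 in mature B against pro-B cells and 8 for any stage difference, beside 24.7%, 20.6%, 4.69%, 29.4% and 42.5% of all genes in the same fits. The block brought Bmf (0.46) in immature B against pre-B and Bad (-0.54) in mature B against pro-B cells past the threshold, and Bcl2l1 (-0.60) in mature B against pro-B cells below it. Under the replicate block Bad was at 0.14 in pre-B against pro-B and -0.15 in immature B against pre-B cells, and Bak1 at -0.043 in immature B against pre-B and -0.030 in mature B against pro-B cells.

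Every other reversal was of a difference that did not pass in the main comparison. Without probe sets that can bind several transcripts, Bad was at -0.067 in leukemic against pre-B, -0.14 in leukemic against pro-B and 0.17 with pIpC, and Mcl1 at -0.13 in mature against immature B cells. With the mean of all probe sets, Bad was at -0.061 in leukemic against pro-B and 0.078 with pIpC, Bak1 at -0.11 in pre-B against pro-B and -0.44 in mature B against pro-B, and Mcl1 at -0.039 in mature against immature B cells. In the second run alone, Bcl2l2 was at -1.10 in leukemic against pre-B, Bid at 0.37 in leukemic against pro-B and -0.23 with pIpC, Bad at 0.018 in pre-B against pro-B and Bak1 at -0.36 with pIpC. In the first run alone, Bak1 was at -0.11 in pre-B against pro-B, and with pIpC Bad was at 0.065 and Mcl1 at 0.054. With the run as a covariate, Bid was at 0.10 in leukemic against pro-B, Bak1 at -0.12 in mature B against pro-B and Mcl1 at 0.00108 with pIpC. With quantile normalization, Bad was at 0.078 in pre-B against pro-B and -0.00363 in immature B against pre-B, and Bid at 0.029 in mature B against pro-B cells. Without arrays 116 and 122, Bad was at -0.060 in leukemic against pro-B cells.

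Leaving out each array turned only small differences. Bad ranged from -0.082 to 0.15 in leukemic against pre-B, -0.048 to 0.091 in leukemic against pro-B, -0.12 to 0.10 in pre-B against pro-B, and -0.10 to 0.14 in immature B against pre-B and -0.12 to 0.075 with pIpC. Bak1 ranged from -0.018 to 0.17, -0.011 to 0.21, -0.23 to 0.087 and -0.034 to 0.24 for pre-B against pro-B, then immature against pre-B, mature against immature and mature B against pro-B cells. Mcl1 ranged from -0.054 to 0.039 in leukemic against pro-B, -0.088 to 0.088 in mature against immature B and -0.17 to 0.017 with pIpC. Bcl2l2 ranged from -0.089 to 0.35 in mature against immature B, and Bid from -0.12 to 0.057 in mature B against pro-B cells.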
